A study of Mus musculus with 6 samples.

Results

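The 34 genes described here are markers of the resident macrophages of the brain: 28 of parenchymal microglia and 6 of border macrophages (Mrc1, Cd163, Lyve1, F13a1, Ms4a7 and Pf4). They were taken as a named list, and their probes were found by gene name or by a RefSeq transcript of the gene. All 34 had at least 1 tested probe, out of 17560 genes with a tested coding probe. Of their 80 probes, among 150305 probes on the array that were not controls, 76 were tested because they lay well above background on all 3 arrays of a genotype. The filter on dim probes did not select genes by a difference, since every brightest probe was well above background on all arrays of both genotypes. The list itself was chosen with earlier results of these data known. Counts over its members are therefore a description and not independent support for a difference.

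Microglia are the macrophages of the brain tissue itself. They arise from yolk sac progenitors, depend on signalling through the receptor encoded by Csf1r, and survey the tissue with fine processes. Border macrophages line the vessels, the meninges and the choroid plexus, take up material with scavenger receptors, and share many genes with microglia while carrying their own set, among them Mrc1, Cd163 and Lyve1.

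The study measured total RNA of prefrontal cortex in 3 Nrf2 knockout and 3 wild type samples, each on its own single-colour Agilent array. Both genotypes were male mice of the outbred ICR stock at 3 to 4 months of age. Nrf2 is the transcription factor made from Nfe2l2, best known for switching on antioxidant and detoxification genes. Which part of Nfe2l2 is missing is not stated in the labels, and neither is whether samples were separate animals, so p-values cover only the differences among these samples, and these may be technical.

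Values are normalised log2 signals, the log2 of the processed signal minus that of the 75th percentile of its array, so that 0 is the 75th percentile. Differences are log2 fold changes of knockout over wild type from limma with their standard errors (SE), and the brightest probe stands for each gene. The array held 3 probes for Nfe2l2. One of them was well above background on all arrays and averaged −3.66 ± 0.17 in the knockout and 0.41 ± 0.072 in wild type (SD, n = 3 each), which is −4.08 on the log2 scale (SE 0.12, adjusted p = 6.14e-04 by limma). The other two were not well above background on any knockout array, so the targeted gene matched the labels in all 6 samples. The 75th percentile of the signal was 269, 248 and 245 in the knockout and 279, 280.3 and 278 in wild type, with 71.0 to 73.4% of probes well above background. The scan times in the file headers split the arrays into 2 sets, called slide 1 and slide 2 here. Slide 1 held knockout 1 and all 3 wild type arrays, and slide 2 held knockouts 2 and 3. That each set was 1 physical slide was inferred from the scan time and not read from a slide identifier. On the first principal component (52.2% of the variance) knockouts 2 and 3 lay at 100.7 and 99.5, while knockout 1 lay at −25.8 and the wild type arrays between −70.7 and −49.0. The main results are for that reason repeated with slide as a block, an estimate that equals knockout 1 against the 3 wild type arrays. All 8 tested neuron genes, 8 astrocyte genes and 8 oligodendrocyte genes passed the same filter on dim probes. Over the whole table, 10 of 105930 tested probes passed an adjusted p of 0.05, which is 0.00944%, and none of them belonged to the 34 genes.

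Many macrophage genes carry sites for PU.1, the transcription factor encoded by Spi1, close to their start sites. RefSeq promoter windows (GRCm38.p6, 250 bases before to 50 after the start site, first listed window of each gene) were available for 24 of the 34 genes. The letters GAGGAAG, a core of the PU.1 motif, were searched on both strands. They were present in 3 of 5 border genes (60.0%) and 8 of 19 parenchymal genes (42.1%), against 13.5% of 27025 promoters of the same length. The bases upstream of the start site are shown for the 3 border genes with a match and for Itgam, the parenchymal gene with most matches. Capitals mark GAGGAAG or its reverse complement, and each window is written 5′ to 3′ on the strand of its gene. F13a1 and Itgam each had 1 further match after the start site, which is not shown.
Mrc1 (chr2:14229164-14229413, plus strand): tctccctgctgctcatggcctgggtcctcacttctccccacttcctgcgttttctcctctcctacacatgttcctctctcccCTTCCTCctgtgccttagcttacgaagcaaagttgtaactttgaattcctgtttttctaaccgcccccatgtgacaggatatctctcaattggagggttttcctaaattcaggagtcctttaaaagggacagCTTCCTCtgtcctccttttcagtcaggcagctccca
Pf4 (chr5:90772185-90772434, plus strand): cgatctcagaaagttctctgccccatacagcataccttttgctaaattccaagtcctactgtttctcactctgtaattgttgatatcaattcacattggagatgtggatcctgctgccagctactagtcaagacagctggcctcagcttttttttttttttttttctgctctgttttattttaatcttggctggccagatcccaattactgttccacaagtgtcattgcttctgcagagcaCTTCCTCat
F13a1 (chr13:37050245-37050494, minus strand): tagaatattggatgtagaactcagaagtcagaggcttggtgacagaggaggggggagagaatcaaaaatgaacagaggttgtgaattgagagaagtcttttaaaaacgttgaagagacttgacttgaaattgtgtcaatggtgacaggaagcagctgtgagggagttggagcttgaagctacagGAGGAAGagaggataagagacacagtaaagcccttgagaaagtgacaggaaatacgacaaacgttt
Itgam (chr7:128062390-128062639, plus strand): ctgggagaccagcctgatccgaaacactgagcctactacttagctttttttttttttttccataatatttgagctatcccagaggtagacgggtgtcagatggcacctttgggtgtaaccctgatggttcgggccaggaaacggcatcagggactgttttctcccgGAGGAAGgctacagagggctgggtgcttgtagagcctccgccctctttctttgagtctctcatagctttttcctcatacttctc
The antioxidant response element, the site that Nrf2 binds with small MAF proteins, was searched as TGANNNNGC and in the narrower form TGACNNNGC, whose matches are all among those of the wider form. The wider form was in 1 of 5 border genes (Ms4a7) and 10 of 19 parenchymal genes (52.6%), against 41.4% of all promoters. The narrower form was in 0 of 5 border genes and in 3 of 19 parenchymal genes (15.8%: C1qb, P2ry12 and Siglech), against 12.5% of all promoters. These matches describe letters in a window and not binding.

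All 6 border macrophage genes measured lower in the knockout, by 0.56 to 0.78 on the log2 scale with a median of −0.66. On the brightest probe of all 6, every knockout array lay below every wild type array. Such a separation of the brightest probe occurred in 12.9% of the 17560 genes. On another tested probe of F13a1, of Lyve1 and of Ms4a7 the groups overlapped. None passed the adjusted threshold (limma adjusted p = 0.307 to 0.310), while 6 of 6 were lower at an unadjusted p of 0.05, as were 9.46% of all genes, and the median over all genes was −0.0051. The 6 genes lie on different chromosomes, Mrc1 on 2, Pf4 on 5, Cd163 on 6, Lyve1 on 7, F13a1 on 13 and Ms4a7 on 19. Chromosome 2 also carries the targeted gene Nfe2l2 and the parenchymal gene Spi1, and an effect of linkage was not tested. In bulk tissue, fewer cells of a type and less RNA per cell cannot be told apart.

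Of the border genes, 3 encode receptors of the cell surface. Mrc1 encodes the mannose receptor CD206, which takes up glycoproteins. It read −0.53, −0.65 and −0.11 in knockouts 1, 2 and 3, against 0.14, 0.49 and 0.098 in wild types 1, 2 and 3. The groups did not overlap, although knockout 3 came within a small step of the lowest wild type array, and the log2 fold change was −0.67 (SE 0.18), or 1.59-fold lower. Its second probe gave −0.77. Cd163, the scavenger receptor for haemoglobin bound to haptoglobin, read −1.003, −1.01 and −0.73 in the knockout samples, against −0.42, 0.22 and −0.19 in wild type. All 3 knockout arrays were low, and the spread was wider among the wild type arrays. The difference was −0.78 (SE 0.18), or 1.72-fold lower, and −0.92 on the second probe. Lyve1, a hyaluronan receptor also found on lymphatic endothelium, read −3.48, −2.90 and −2.85 in the knockout samples, against −2.09, −2.29 and −2.58 in wild type. Knockout 1 was the lowest array by a clear margin. The log2 fold change was −0.76 (SE 0.21), with −0.46 on a second probe, and another probe was not well above background on all arrays of either genotype and was not tested.

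The secreted products of border macrophages were represented by F13a1 and Pf4. F13a1 encodes the A subunit of coagulation factor XIII, which crosslinks fibrin. It read −1.09, −0.83 and −0.34 in the knockout samples, against −0.16, 0.15 and −0.30 in wild type. Knockout 3 lay just under wild type 3, so the separation of the groups rests there on a narrow gap. The difference was −0.65 (SE 0.22), with −0.42 on its second probe. Pf4 encodes the chemokine platelet factor 4, known from platelets and also made by border macrophages. Its values were −0.40, 0.059 and 0.24 in the knockout samples, against 0.41, 0.60 and 0.56 in wild type. Knockout 1 was again the lowest array, and the wild type arrays lay close together. The log2 fold change was −0.56 (SE 0.17), or 1.47-fold lower, and −0.62 on the second probe.

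Ms4a7 encodes a protein that spans the membrane several times and marks border macrophages against homeostatic microglia. It read −3.30, −2.95 and −2.70 in the knockout samples, against −2.07, −2.42 and −2.58 in wild type. The gap between knockout 3 and wild type 3 was small, and the difference was −0.63 (SE 0.20). Its probes disagreed: a second one gave −0.93, while the third, designed on another transcript, gave 0.21 (SE 0.17). That probe was the one exception among the 13 tested border probes, of which 12 measured lower in the knockout.

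**Figure D1:**
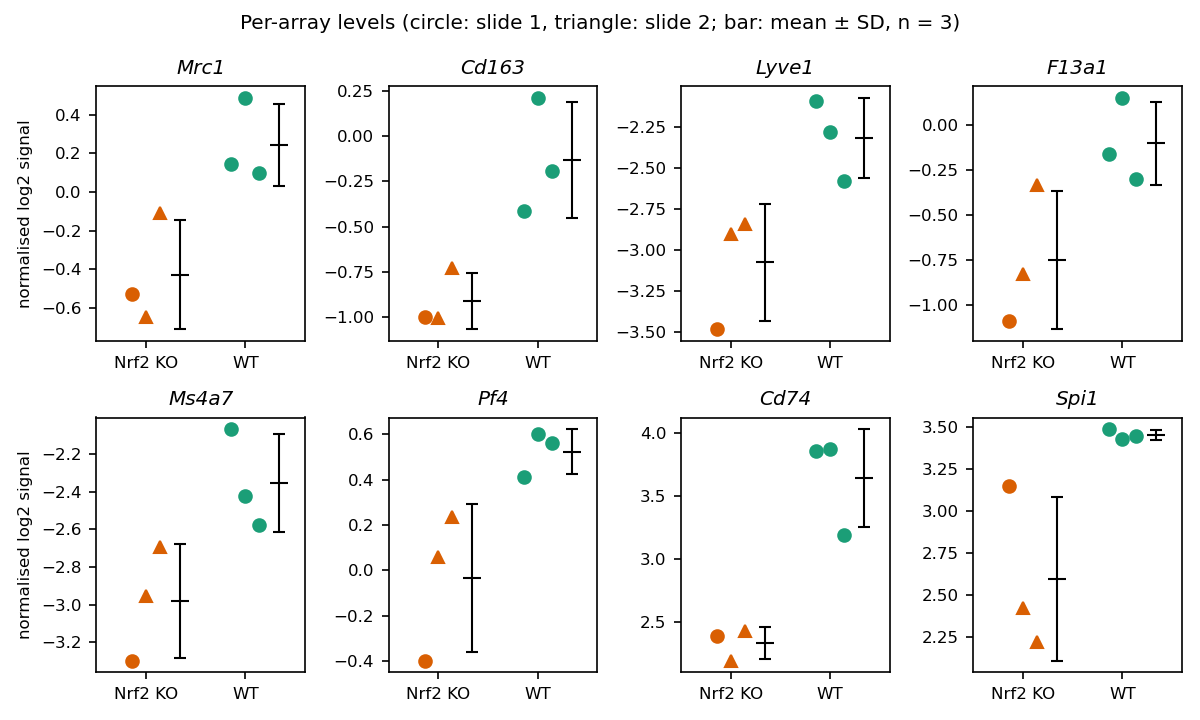
Normalised log2 signal of each array for the 6 border genes and for Cd74 and Spi1, with Nrf2 knockout left of wild type in each panel. Circles are arrays of slide 1 and triangles arrays of slide 2, bars give the mean ± SD (n = 3 each), and the vertical scale differs between panels. The groups do not overlap in any of the 8 panels, and the circle of the knockout lies lowest for Lyve1, F13a1, Ms4a7 and Pf4 but highest in its group for Spi1.

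Knockout 1, on slide 1, was the lowest of the 6 arrays in 4 of the 6 genes. With slide as a block the median of the border genes was −0.93, with a range of −1.17 (Lyve1) to −0.77 (Mrc1). That estimate rests on knockout 1 alone among the knockout arrays, which is assumed to vary like the others, and its p-values cannot show the spread between knockout samples on that slide. In this fit 6 of 6 were lower at an unadjusted p of 0.05, against 4.33% of all genes. The median over all genes with the block was −0.060. Averaged over the 6 genes, the arrays lay at −0.94, −0.69 and −0.39 from the wild type mean in knockouts 1, 2 and 3, against −0.0070, 0.15 and −0.14 in wild types 1, 2 and 3.

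Cd74 and Spi1 were the only parenchymal genes whose brightest probe had an unadjusted p under 0.05. That is 2 of 28 lower and 0 of 28 higher, against 9.46% and 2.93% of all genes. Another probe reached that p in Fcer1g and Laptm5, where it was lower, and in Cx3cr1, where it was higher. Cd74 encodes the invariant chain, which guides MHC class II molecules to the compartment where peptides are loaded. It read 2.39, 2.19 and 2.43 in the knockout samples, against 3.86, 3.87 and 3.19 in wild type. The knockout arrays lay close together and well below the lowest wild type array. The log2 fold change was −1.30 (SE 0.20), or 2.47-fold lower, with an adjusted p of 0.283 by limma. It was −0.90 on the second probe and −1.25 with slide as a block. In the adult brain MHC class II is known mainly from border macrophages and other antigen-presenting cells, and Cd74 differed by more than any border gene.

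Spi1 encodes PU.1, the transcription factor that macrophages need for their development. It read 3.15, 2.42 and 2.22 in the knockout samples, against 3.49, 3.42 and 3.44 in wild type. The knockout arrays of slide 2 were far below the wild type arrays, while knockout 1 on slide 1 was only slightly below them. The log2 fold change of −0.85 (SE 0.24) became −0.30 with slide as a block. The second, dim probe gave −0.33 (SE 0.28). Without knockout 1, both Spi1 (−1.13, adjusted p = 0.00345) and Cd74 (−1.33, adjusted p = 0.0255) passed the adjusted threshold of limma, as did 7.33% of all genes in the lower direction. In that fit all knockout arrays were on slide 2 and all wild type arrays on slide 1, so slide and genotype cannot be told apart.

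The other 26 parenchymal genes gave values close to 0. Their median was −0.079, with a range of −0.39 (C3ar1) to 0.27 (Selplg) and adjusted p from 0.347 to 0.999. Over all 28, 25 measured below 0 and 3 above, against 51.3% of all genes below 0, and 23 lay within 0.25 of 0. Of those below 0, Cx3cr1, P2ry12, Trem2, Sall1, Itgam, Laptm5 and C1qb lay above 0 when arrays were scaled by their median. The SE of the 26 ran from 0.087 to 0.23, so small differences on the log2 scale were not detectable at 3 arrays per group. Their mean on each array lay at −0.16, 0.0043 and −0.13 from the wild type mean in knockouts 1, 2 and 3, against −0.030, 0.093 and −0.063 in wild types 1, 2 and 3. These ranges overlap.

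**Figure D2:**
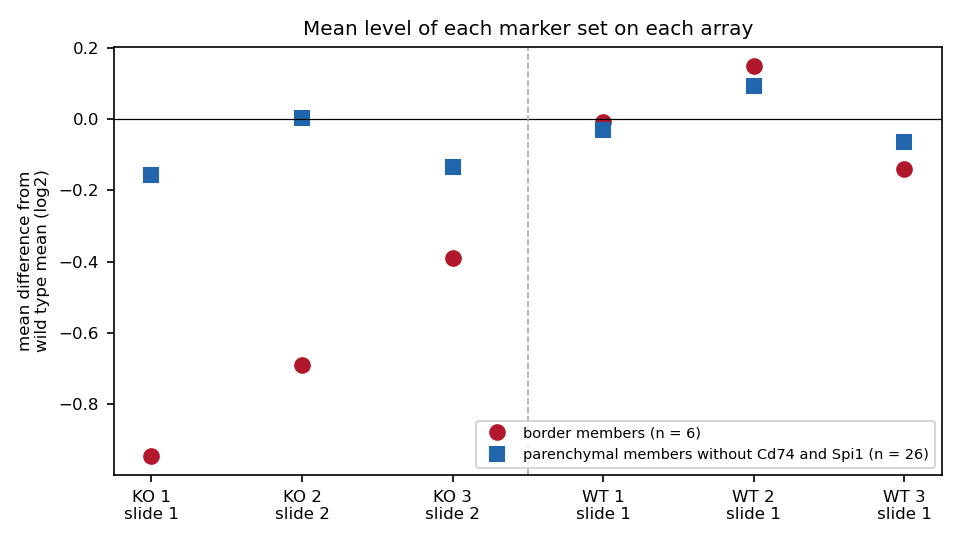
Mean difference from the wild type mean on each array, in log2 units, over the 6 border genes (circles) and over the 26 parenchymal genes without Cd74 and Spi1 (squares), with knockout arrays left of wild type arrays and the slide under each. The border genes lie between −0.94 and −0.39 in the knockout and between −0.14 and 0.15 in wild type. The 26 parenchymal genes lie between −0.16 and 0.093 on all 6 arrays. Over all 28, not drawn, knockout arrays lie between −0.21 and −0.085 and wild type arrays between −0.075 and 0.094.

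Among the surface receptors of homeostatic microglia, Cx3cr1, the receptor for the neuronal chemokine fractalkine, read 3.89, 4.08 and 3.73 in the knockout samples, against 3.89, 3.96 and 3.87 in wild type. The wild type range fell inside that of the knockout, and the log2 fold change was −0.0094 (SE 0.11). Its other two probes gave 0.13 and 0.25. Csf1r, the receptor for CSF1 and IL34 on which microglia depend, read 4.98, 5.17 and 4.94 in the knockout samples, against 5.17, 5.13 and 4.99 in wild type. The groups overlapped, with −0.069 (SE 0.10) on the brightest probe and 0.13 to 0.15 on its 3 other probes. The purine receptors P2ry12, which directs microglial processes towards ATP and ADP, and P2ry13 gave −0.022 and 0.011. Gpr34, a receptor for lysophosphatidylserine, gave −0.14.

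Siglech, a sialic acid-binding lectin that marks microglia, read −1.67, −1.57 and −1.53 in the knockout samples, against −1.69, −1.65 and −2.02 in wild type. Its difference was 0.19 (SE 0.12), and the value rested mainly on the low wild type 3. C3ar1, the receptor for the complement fragment C3a, read −1.63, −1.05 and −1.38 in the knockout samples, against −1.41, −0.66 and −0.83 in wild type. Both groups were spread widely, with −0.39 (SE 0.23) and 0.048 on a second probe. Selplg, the ligand of P-selectin, gave 0.27 (SE 0.13) and 0.038 with slide as a block, and the microglial membrane protein encoded by Tmem119 gave −0.061.

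Of the genes of activating receptor complexes, Tyrobp encodes DAP12, the signalling adaptor of TREM2. It read 3.52, 3.71 and 3.50 in the knockout samples, against 3.62, 3.95 and 3.76 in wild type. Knockout 2 lay inside the wild type range, and the difference was −0.20 (SE 0.12). Trem2, the lipid-sensing receptor that signals through DAP12, gave −0.029 (SE 0.12), with 0.11 and 0.14 on its other probes. Fcer1g, the common gamma chain of Fc receptors, gave −0.25 (SE 0.11) with no overlap of the groups, and −0.33 on its second probe. Fcgr3, an activating receptor for IgG, gave −0.23 (SE 0.10), also without overlap, but 0.018 on its second probe. Fcrls, an Fc receptor-like gene known from mouse microglia, gave −0.15.

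The complement genes C1qa, C1qb and C1qc encode the 3 chains of C1q, which tags synapses and debris and is made mainly by microglia in the brain. C1qa read 5.59, 5.65 and 5.53 in the knockout samples, against 5.69, 5.76 and 5.56 in wild type. C1qb read 3.64, 3.85 and 3.83 in the knockout samples, against 3.80, 3.85 and 3.68 in wild type. The groups overlapped in both, with −0.083 (SE 0.095) for C1qa and −0.00022 (SE 0.10) for C1qb, while C1qc gave −0.15 (SE 0.096) with no overlap.

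Lysosomal genes gave the brightest signal of the set in Ctss, which encodes the protease cathepsin S. It read 5.60, 5.80 and 5.68 in the knockout samples, against 5.70, 5.91 and 5.87 in wild type. Knockout 2 lay inside the wild type range, and the difference was −0.14 (SE 0.10), with −0.24 on its second probe. Cd68, a lysosomal membrane protein, gave −0.076, and Laptm5, a lysosomal membrane protein of blood cells, gave −0.022, with −0.33 on one of its 3 probes.

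Among genes shared with other leukocytes, Ptprc encodes the phosphatase CD45. It read −0.96, −0.63 and −0.83 in the knockout samples, against −0.51, −0.36 and −0.69 in wild type. Knockout 2 overlapped with wild type 3, and the log2 fold change was −0.29 (SE 0.13). Itgam and Itgb2, the chains of the integrin CD11b/CD18, gave −0.016 and −0.14. Of the transcription factors, Sall1, which keeps the microglial programme, read −0.47, −0.28 and −0.50 in the knockout samples, against −0.54, −0.30 and −0.31 in wild type. Its groups overlapped fully at −0.030 (SE 0.11), and its second probe gave 0.17. Irf8, a partner of PU.1, gave −0.22 (SE 0.12) with no overlap and −0.44 with slide as a block. Olfml3, a secreted glycoprotein of microglia, gave −0.24 (SE 0.13).

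On the brightest probe of 6 of the 28 parenchymal genes (Cd74, Spi1, Fcer1g, C1qc, Irf8 and Fcgr3) every knockout array lay below every wild type array. In 0 of the 28 every knockout array lay above on that probe, against 12.9% and 6.47% of all genes. With slide as a block 4 were lower at an unadjusted p of 0.05 (Fcer1g, Ptprc, Irf8 and Cd74) and 0 were higher, against 4.33% and 1.07% of all genes, with a median of −0.13 over the 28. These counts too rest on knockout 1 as the only knockout array of its slide. Of the 63 tested parenchymal probes, 42 gave a value below 0 and 21 above. In 12 of the 28 genes the tested probes of the gene lay on both sides of 0. Beside the brightest probes, every knockout array lay above every wild type array on another probe of Cx3cr1 and of Csf1r. The knockout arrays all lay below on another tested probe of Ctss and of Laptm5. The other tested probes of Spi1, C1qc, Irf8 and Fcgr3 overlapped.

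**Figure D3:**
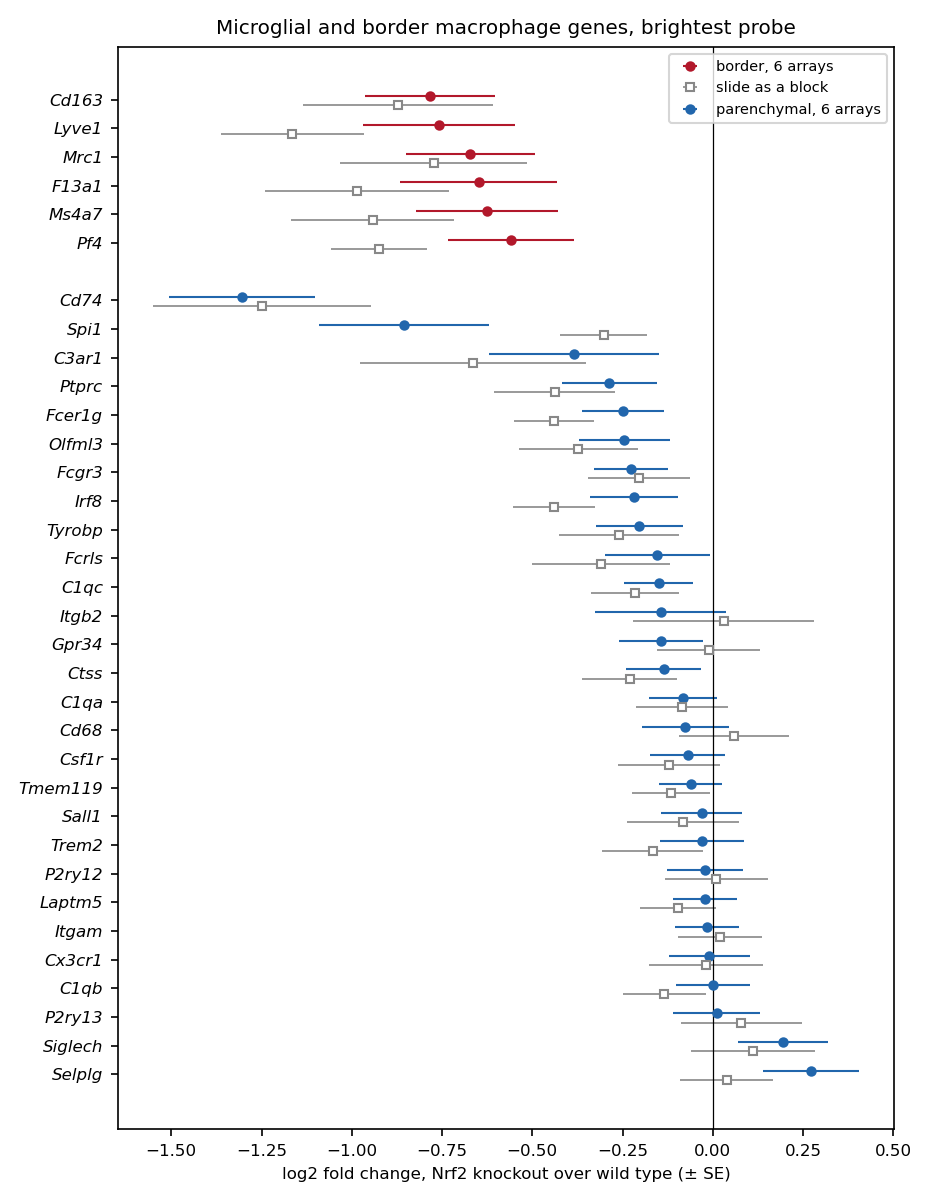
Log2 fold change of knockout over wild type for the brightest probe of each of the 34 genes, as filled points with SE over 6 arrays (red, border; blue, parenchymal), and as open squares with slide as a block. The 6 border genes lie between −0.78 and −0.56 and lower with the block, Cd74 and Spi1 lie lowest among the parenchymal genes, and 23 of the 28 parenchymal points lie within 0.25 of 0.

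Further genes of the same cells were read from lists that do not contain the 34. None of the genes in the lists below passed the adjusted threshold, so the counts are at an unadjusted p of 0.05, against 9.46% lower and 2.93% higher over all genes. With slide as a block, which rests on knockout 1, the shares over all genes were 4.33% and 1.07%. Of 40 other microglial genes, 6 were lower and 0 higher, with a median of −0.088, and 1 was lower with slide as a block. The smallest p belonged to Dock2, a guanine nucleotide exchange factor for Rac (−0.53), and Cyth4, an exchange factor for ARF proteins (−0.96), which gave −0.25 and −0.16 with slide as a block. Of 28 activation-associated microglial genes, 8 were lower and 0 higher (5 lower with slide as a block), with a median of −0.13. The 8 include Cybb, a subunit of the phagocyte NADPH oxidase (−1.19), which was well above background on 2 knockout and 3 wild type arrays and passed the filter only through the group where it was higher. Clec7a, the beta-glucan receptor dectin-1, gave −1.13, and Lyz2, lysozyme of myeloid cells, gave −0.88. Both differed by a like amount with slide as a block, at −1.03 and −0.87. A list of survival signals and receptor ligands also held genes of signalling inside the cell, among them Syk, Rac2 and Vav1. Of its 17 tested genes, 1 was lower, the complement component C3 (−0.63), and 0 with slide as a block. The median over this mixed list was 0.010. The second smallest p in that list was that of Rac2 (−0.16).

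Most of the other border macrophage genes measured lower in the knockout. Of 18 tested, 17 lay below 0, against 51.3% of all genes. Their median was −0.40, or −0.57 with slide as a block. At an unadjusted p of 0.05, 5 were lower (9 with the block, where it rests on knockout 1). Both counts include Msr1, a scavenger receptor (−1.03), which was well above background on 2 knockout and 3 wild type arrays and so passed the filter only through the group where it was higher. Clec4n, the C-type lectin dectin-2, read −1.82, −1.93 and −2.01 in the knockout samples, against −1.07, −1.27 and −1.33 in wild type, which is −0.70 on the log2 scale (SE 0.11, adjusted p = 0.283 by limma). Colec12, a scavenger receptor with a collagen-like stalk, gave −0.49. All 5 tested MHC class II genes lay below 0, with a median of −0.54 (−0.55 with slide as a block). They summed to 12.8 to 15.5 in the knockout, against 19.8 to 23.2 in wild type, on a linear scale where 1 is the 75th percentile of the array. H2-Aa, the alpha chain of I-A, read 0.96, 1.26 and 1.48 in the knockout samples, against 2.37, 3.22 and 2.57 in wild type. The groups were widely separated, with a difference of −1.49 (SE 0.25, adjusted p = 0.289 by limma), and H2-Ab1, its beta chain, gave −0.99.

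Markers of other cell types that cortical samples can hold were read beside the border genes. Sums are on the same linear scale. The 8 meningeal fibroblast genes summed to 34.8 to 40.4 in the knockout, against 40.9 to 47.4 in wild type. Of these, 7 lay below 0 and 3 were lower at an unadjusted p of 0.05, led by Igf2 (−0.54) and Ogn (−0.65), and the median was −0.40, or −0.59 with slide as a block. The 10 tested lymphocyte markers summed to 61.4 to 85.6 in the knockout, against 98.1 to 106 in wild type. Their median was −0.31, 4 were lower, led by Nkg7 (−0.37) and Klrb1c (−0.57), and with slide as a block the median was −0.13 with 0 lower.

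The 11 tested monocyte and neutrophil markers summed to 27.8 to 44.7 in the knockout, against 28.2 to 54.3 in wild type, which overlap. Their median of −0.34 turned to 0.28 with slide as a block, but not all genes turned. With the block S100a8, S100a9, Ngp, Camp, Mpo and Elane lay above 0 (0.28 to 2.12), and Ly6c2 and Csf3r at −0.012 and −0.0095. Over the 6 arrays 3 were lower at an unadjusted p of 0.05: Plac8 (−1.05), Ly6g (−0.77) and Ccr2 (−0.94). They stayed below 0 with the block, at −0.66, −0.16 and −1.35. Red cell genes ran the other way. They summed to 840.2 to 992 in the knockout, against 627 to 812 in wild type, with a median of 0.48 and 4 of 6 higher, led by Hba-a2 (0.53) and Hbb-bt (0.79). With slide as a block the median was 0.29 and 0 were higher. The 7 tested choroid plexus genes summed to 1.90 to 3.101 in the knockout, against 2.05 to 2.23 in wild type. Their median was 0.18, or −0.11 with slide as a block, with 4 of 7 above 0. The 2 with the smallest p, Kcne2 (−0.74) and Kl (−0.66), were among the 3 below 0, and 0 were lower at an unadjusted p of 0.05 with the block. The 10 endothelial and mural genes had a median of −0.0069 and summed to 90.2 to 97.7 in the knockout, against 98.1 to 105 in wild type, with Ly6c1 at −0.36 and Acta2 at 0.32. H2-Eb1 of the MHC class II list, Otx2 of the choroid plexus list and Cxcr2 of the neutrophil list did not pass the filter on dim probes. Neither did Clec12a and Ccr1 of the other border macrophage list. Of Trbc2 and Ms4a1 in the lymphocyte list, 1 did not pass and 1 had no coding probe under its name, like Lrrc33 of the ligand list. Csf3r was in both the microglial and the monocyte and neutrophil lists. The part of these cells in the border result was not tested.

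Cells of the cortical tissue itself gave medians near 0: 0.00057 over 8 astrocyte genes, −0.055 over 8 oligodendrocyte genes and 0.033 over 8 neuron genes. In none of these 3 lists did a gene reach an unadjusted p of 0.05 over the 6 arrays. With slide as a block the medians were −0.18, −0.12 and −0.027, and 1 astrocyte gene, Gfap, was lower at that p (−0.87). Their smallest p were those of Gfap (−0.49), Gjb6 (−0.27), Mbp (0.15), Cldn11 (−0.24), Rbfox3 (0.19) and Camk2a (0.13). The border genes summed to 2.61 to 3.79 in the knockout, against 4.55 to 5.58 in wild type.

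**Figure D4:**
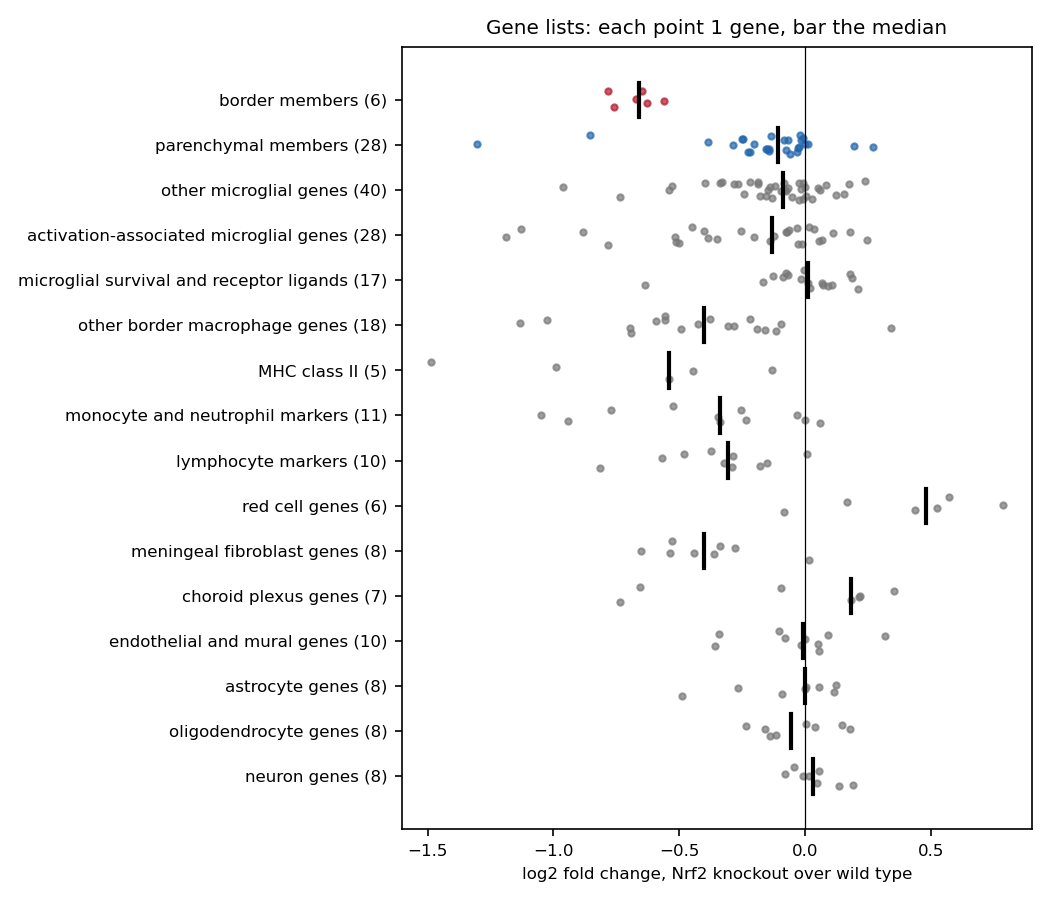
Log2 fold change of knockout over wild type for each tested gene of each list, 1 point per gene, with the median as a bar and the number of genes in brackets. The border genes have the lowest median (−0.66), MHC class II, other border macrophage, meningeal fibroblast, monocyte and neutrophil, and lymphocyte lists have medians between −0.54 and −0.31, and the astrocyte, oligodendrocyte and neuron lists lie near 0.

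The array also carried probes for circular RNAs, closed loops of exons made by back-splicing. By position, and without matching of strand, 13 of these lay inside 4 of the genes (7 in F13a1, 3 in Mrc1, 2 in Itgb2 and 1 in Csf1r), and 6 were tested. Those in F13a1 and Mrc1 lay on the strand of the gene. For Itgb2 and Csf1r the gene strand was not at hand, so those probes may not belong to the gene. The 2 tested ones in Mrc1 gave −0.30 (SE 0.23; chr2:14288987-14294944) and 0.18 (SE 0.29; chr2:14257004-14271374), while both linear probes were below 0. Of the 2 tested ones in F13a1, 1 gave −0.57 (SE 0.31) and passed the filter only through wild type, being well above background on 1 knockout and 3 wild type arrays. The other gave 0.42 (SE 0.17), at an unadjusted p of 0.045 in limma and an adjusted p of 0.327. Those in Itgb2 and Csf1r gave −0.092 and −0.083. These probes were dim, with normalised log2 signals of −5.87 to −3.14 over the arrays, and none passed the adjusted threshold. No source used here gives the build of the circular RNA positions, which were read as GRCm38.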

How the data were processed

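Prefrontal cortex RNA of 3 Nrf2 knockout and 3 wild type samples was measured on single-colour arrays. The deposited scanner files hold linear intensity values. Per the file headers they come from Agilent Feature Extraction 12.0.3.1, whereas version 10.7, together with limma, is named in the submitters' processing notes. The authors' processed value table holds log2 values (r of at least 0.99986 with log2 of the scanner signal of the same array). No source used here gives its exact steps, and it served as an alternative. Signals were divided by the 75th percentile of their array and taken to log2, 4974 control spots were left out, and flagged spots were set to missing. Probes well above background on all 3 arrays of a genotype were fitted without covariates with limma 3.58.1 (lmFit, eBayes; R 4.3.3). P-values are two-sided, and adjusted ones follow Benjamini-Hochberg across the tested probes, with 0.05 as the threshold. The number of arrays limits the precision: 3 against 3 samples cannot go below 0.1 in an exact permutation test. The steps were tested on simulated data.

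The 34 genes and the further gene lists were chosen with earlier results of these data known. All 34 are named; values of each array are printed for the border genes, for genes with an unadjusted p under 0.05, and for the 6 brightest and 4 dimmest parenchymal genes. From other lists the 2 genes with the smallest p are named, with further genes where a count or median needs them. Of the probes, 48048 took their symbol from a RefSeq table of GRCm38. Alternatives were slide as a block, slide 1 alone, a replicate block, normexp background correction with an offset of 50, quantile normalisation, median scaling, the authors' table, 2 other filters on dim probes, the mean over probes, and leaving out each array.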

Additional observations from a re-analysis of the deposited data

How the results depend on the processing

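Over 16 alternatives, 499 of 544 values of single genes kept their direction and their side of the adjusted threshold, 43 changed sign in 13 genes whose reported size was at most 0.14, and 2 passed the threshold only without knockout 1 (Spi1 and Cd74). The number of parenchymal genes passing was 0 to 2 when each array was left out in turn, and no border gene passed under any alternative (0 in each). All 6 border genes stayed below 0 in every setting, with 4 to 6 of them at an unadjusted p under 0.05. Their median was −0.93 with slide as a block and on slide 1 alone, which are 1 contrast of knockout 1 with the wild type arrays. Normexp background correction gave 13 of the 34 genes at an unadjusted p under 0.05, against 8 as reported. The 13 were 5 border and 7 parenchymal genes that were lower and 1 parenchymal gene, Selplg, that was higher. The share of all genes at that p was not counted for normexp. In that fit 17 of all tested probes passed the adjusted threshold, against 10 as reported. With the replicate number as a block, both medians were as reported (−0.66 border, −0.11 parenchymal), none of the 34 genes passed (0), and 2 of all tested probes did, against 10 without it. Same-numbered samples did not deviate together (correlations of −0.013, −0.050 and 0.038), so the labels' numbers give no pairing.

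Signs of small values turned as follows, and the cause was not tested. With slide as a block or slide 1 alone, P2ry12 gave 0.010, Cd68 0.058, Itgam 0.020 and Itgb2 0.030. Median scaling, which moved the median of all tested probes to 0.079 against 0.028, gave Cx3cr1 0.042, P2ry12 0.029, Trem2 0.022, Sall1 0.021, Itgam 0.035, Laptm5 0.030 and C1qb 0.051. The mean over all probes of a gene gave Cx3cr1 0.12, Tmem119 0.010, Csf1r 0.089, Trem2 0.072, Sall1 0.072, C1qa 0.0046 and C1qb 0.035. C1qb was 0.0048 after quantile normalisation and 0.0071 in the authors' table. Leaving out each array gave ranges across 0 for Cx3cr1 (−0.098 to 0.075), P2ry12 (−0.075 to 0.046), P2ry13 (−0.060 to 0.12), Trem2 (−0.11 to 0.040), Sall1 (−0.11 to 0.012), Cd68 (−0.15 to 0.017), Itgam (−0.044 to 0.039), Itgb2 (−0.26 to 0.042), Laptm5 (−0.064 to 0.015) and C1qb (−0.050 to 0.067). Lyve1 and Ms4a7, the dimmest of the border genes, gave −0.31 and −0.21 with normexp, against −0.76 and −0.63 as reported. Their brightest probes were well above background on all arrays. Whether the smaller values came from the background correction, its offset or the dim signal was not tested.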
